A study of Mus musculus with 16 samples.

Results

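*Trim30* and the related restriction TRIM genes were followed through the nuclei of the mouse hippocampus. The 9 genes are *Trim30a*, *Trim30b*, *Trim30c*, *Trim30d*, *Trim12a*, *Trim12c*, *Trim34a*, *Trim5* and *Trim21*. They were chosen from among 32285 listed genes by symbol, with their rise after DMXAA in wild-type (WT) mice already known, so that rise is given here as a description without a test. Each gene has 1 row per matrix, and together the 9 genes took 17299 of 634727220 unique molecular identifiers (UMIs, each standing for 1 captured RNA molecule).

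Single-nucleus RNA-seq was performed on the hippocampus of 16 male mice, with 1 animal per library. WT C57BL/6 mice, aged 2 months and 23 days, received vehicle or DMXAA, with 4 libraries in each group. Mice of the genotype Ifnar1-/- (knockout, KO), aged 3 months and 3 days, received vehicle or DMXAA, again with 4 libraries in each group. DMXAA is an agonist of mouse STING and was given by repeated intraperitoneal injection. Genotype coincided with age and with the cohort, so these cannot be told apart in any comparison of KO with WT. The KO allele is not restricted to a cell type.

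Type I interferon binds a receptor made of IFNAR1 and IFNAR2, which acts through the kinases JAK1 and TYK2 on transcription factors, STAT2 and IRF9 among them. The activated factors bind the interferon-stimulated response element in the promoters of its target genes. TRIM proteins carry a RING domain with ubiquitin ligase activity, a B-box and a coiled coil. TRIM5 of primates binds incoming retroviral capsids, and *Trim5*, *Trim12a*, *Trim12c* and the *Trim30* genes are its relatives in the mouse. *Trim30a* encodes an interferon-inducible protein known to restrain innate signalling, and *Trim21* encodes a cytosolic antibody receptor that marks antibody-coated virus for degradation.

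Of the 9 genes, 8 lie together on chromosome 7 within 263.4 kb (GRCm38, chr7:104244457-104507849), and *Trim21* lies 1.68 Mb away on the same chromosome. *Trim34a* is on the plus strand and the other 8 are on the minus strand. RefSeq promoter windows of GRCm38.p6, from 250 bases before to 50 bases after an annotated start, were searched on both strands for the core of the response element, written here as 2 copies of GAAA with any 2 bases between them, which reads as copies of TTTC on the other strand. The core was found in 7 of the 9 genes and in 3.99% of 27025 genes with a window. *Trim30b* and *Trim30c*, the exceptions, held no core in their windows, which says nothing of sequence outside them. With any 3 bases between the copies, no window of the 9 genes held a match, against 3.17% of genes. The pattern TTCNNNGAA, with N for any base, was found only in *Trim30c*, against 9.55% of genes. The window of *Trim30b* lies inside the gene as the GRCm38 annotation draws it, and the sequence at the outer 5′ end of that gene was not searched. The following 4 windows show the core, in capitals, in the gene followed most closely here (*Trim30a*), in the neighbour closest to it in promoter sequence (*Trim30d*), in the gene that separated the groups in neurons (*Trim34a*) and in the gene outside the cluster (*Trim21*). The window of *Trim30c*, printed last, aligns with that of *Trim30a* and holds no core.

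Trim30a, chr7:104465144-104465443, minus strand: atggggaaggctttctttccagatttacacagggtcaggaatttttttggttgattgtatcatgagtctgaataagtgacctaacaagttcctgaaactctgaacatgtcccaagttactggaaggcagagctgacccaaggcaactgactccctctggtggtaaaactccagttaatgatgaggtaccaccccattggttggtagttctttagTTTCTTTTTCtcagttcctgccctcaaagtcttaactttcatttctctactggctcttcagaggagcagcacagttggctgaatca

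Trim30d, chr7:104507800-104508099, minus strand: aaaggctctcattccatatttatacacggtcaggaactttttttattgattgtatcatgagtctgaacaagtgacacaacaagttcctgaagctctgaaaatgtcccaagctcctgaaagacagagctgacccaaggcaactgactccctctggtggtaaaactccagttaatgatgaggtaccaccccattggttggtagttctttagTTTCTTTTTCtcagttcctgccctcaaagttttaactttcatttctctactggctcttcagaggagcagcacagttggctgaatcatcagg

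Trim34a, chr7:104244207-104244506, plus strand: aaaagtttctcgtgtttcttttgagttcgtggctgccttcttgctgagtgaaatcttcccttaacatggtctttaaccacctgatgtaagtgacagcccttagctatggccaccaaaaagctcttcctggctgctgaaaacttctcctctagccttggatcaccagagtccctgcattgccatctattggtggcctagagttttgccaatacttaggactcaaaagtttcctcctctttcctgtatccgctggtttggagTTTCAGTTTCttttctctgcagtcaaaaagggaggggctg

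Trim21, chr7:102565433-102565732, minus strand: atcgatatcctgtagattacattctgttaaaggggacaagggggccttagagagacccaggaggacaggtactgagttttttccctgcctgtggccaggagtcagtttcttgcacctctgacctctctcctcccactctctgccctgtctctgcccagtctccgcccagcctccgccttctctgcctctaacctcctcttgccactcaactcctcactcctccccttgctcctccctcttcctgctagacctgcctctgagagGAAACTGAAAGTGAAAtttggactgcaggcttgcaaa

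Trim30c, chr7:104400729-104401028, minus strand: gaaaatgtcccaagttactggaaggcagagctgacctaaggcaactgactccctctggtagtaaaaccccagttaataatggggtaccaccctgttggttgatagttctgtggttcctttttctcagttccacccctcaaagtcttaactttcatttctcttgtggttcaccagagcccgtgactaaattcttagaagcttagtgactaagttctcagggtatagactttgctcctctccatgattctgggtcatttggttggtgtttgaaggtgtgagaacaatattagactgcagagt

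The windows of *Trim30a* and *Trim30d* agreed at 93.6% of 295 aligned bases, and those of *Trim30a* and *Trim30c* at 81.4% of 199. Those of *Trim12a* and *Trim5* agreed at all 241 aligned bases. Counted from the annotated start of the printed window, the core begins at -36 in *Trim30a*, at -41 in *Trim30d* and at 11 in *Trim34a*. *Trim30a* has a second annotated start, whose window has the core at 3. Windows were compared at a fixed offset without gaps, so an inserted or missing base lowers the figure. Compared in this way, the second window matched that of *Trim30d* at 52.0% of 256 bases. Around the core these windows read nearly the same, so that figure is not a measure of how unlike they are. In *Trim21* the capitals are 2 overlapping matches, beginning at 14 and 20. Transcripts of the relatives share stretches, which limits how surely a read is given to 1 gene. Of all 90-base words in the exons of *Trim34a*, 24.1% also occur in *Trim34b*. Of those of *Trim5*, 14.5% occur in another gene, mainly *Trim12c* or *Trim12a*. The same share was 11.0% for *Trim12c* and 3.8% for *Trim12a*, each mainly with *Trim5*. *Trim30a* and *Trim30d* share words with each other, 4.6% and 4.8% of their own. No such word of *Trim30b*, *Trim30c* or *Trim21* occurs elsewhere. Only exons were compared, so these shares do not cover reads from introns.

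After filtering, 5279 to 9326 nuclei per library were kept, 111992 in all, carrying 33443071 to 51966342 UMIs per library. They fell into 14 classes named from marker genes, and the remainder stayed unnamed. *Ifnar1*, the disrupted gene, was read at 17.1 to 19.1 counts per 1000000 UMIs of the class and library (CPM) in WT vehicle libraries and at 10.7 to 12.2 CPM in KO vehicle libraries, with no overlap, so its reads were reduced but not absent in KO. Whether these reads come from outside the disrupted part was not tested. Across libraries, 1592 barcode sequences occurred more than once, and any pair of libraries shared 5 to 22.

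WT DMXAA replicate 3 stood apart. Its microglia carried 6620 CPM of the 9 microglial markers together, against 9115 to 10584 CPM in the other 3 WT DMXAA libraries and 10717 to 11346 CPM in WT vehicle. Excitatory neuron markers reached 452 CPM in the same microglia, against 155 to 191 CPM in the other 3. This library also held 141 border macrophage nuclei, where no other WT DMXAA library had more than 30. In those 141 nuclei, peripheral myeloid markers (1010 UMIs, 3248 CPM) exceeded border macrophage markers (629 UMIs, 2023 CPM), which goes against the name of the class in this library. Pairs of a gene and a class with enough UMIs were ranked, with all nuclei together counted as a class. Of these 54 pairs, replicate 3 was the lowest WT DMXAA library in 45, and replicate 1 was the highest in 44. The sums over all nuclei repeat the UMIs of the classes. Folds without replicate 3 or without replicate 1 are therefore given for the main values.

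At rest, the *Trim30* genes were read mainly in myeloid nuclei. In WT vehicle libraries, *Trim30a* was highest in border macrophages, the macrophages of meninges and vessels, at 302 ± 193 CPM (SD, n = 4). Microglia followed at 117 ± 20.9 CPM and endothelial cells at 91.2 ± 54.2 CPM, and libraries of these 2 neighbours overlapped. Fibroblasts at 14.6 ± 8.73 CPM and choroid plexus at 13.3 ± 2.78 CPM overlapped as well, and astrocytes stood at 4.19 ± 1.73 CPM. Microglia outnumbered border macrophages 1327 to 113 in these libraries and held 47.6 ± 5.6% of all *Trim30a* UMIs. These classes were cut from the same nuclei, so the order is a description.

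The relatives differed in where their UMIs lay. Microglia held 84.2 ± 16.2% of *Trim30b* UMIs, 55.5 ± 22.7% of *Trim30c* UMIs and 52.6 ± 9.53% of *Trim30d* UMIs, on 40, 49 and 403 UMIs in WT vehicle. *Trim5* was also mainly microglial, at 52.9 ± 7.80% of 300 UMIs. *Trim12a* was spread more widely, with 30.8 ± 1.56% in microglia and 31.0 ± 5.78% in astrocytes. *Trim34a* lay more in astrocytes, at 32.2 ± 4.01%, than in microglia, at 19.4 ± 2.97%, with no overlap of libraries. Astrocytes outnumbered microglia 3396 to 1327, and by level *Trim34a* was lower in them, at 9.93 ± 2.35 against 23.7 ± 3.52 CPM. Its highest means were in endothelial cells (69.2 ± 40.9 CPM on 13 UMIs), border macrophages (58.2 ± 32.1 CPM) and fibroblasts (37.8 ± 11.3 CPM). *Trim21* had only 139 UMIs, of which microglia held 12.7 ± 9.67% and astrocytes 25.6 ± 17.8%. By level *Trim21* stood at 7.08 ± 6.13 CPM in microglia and 3.06 ± 1.09 CPM in astrocytes.

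**Figure D1:**
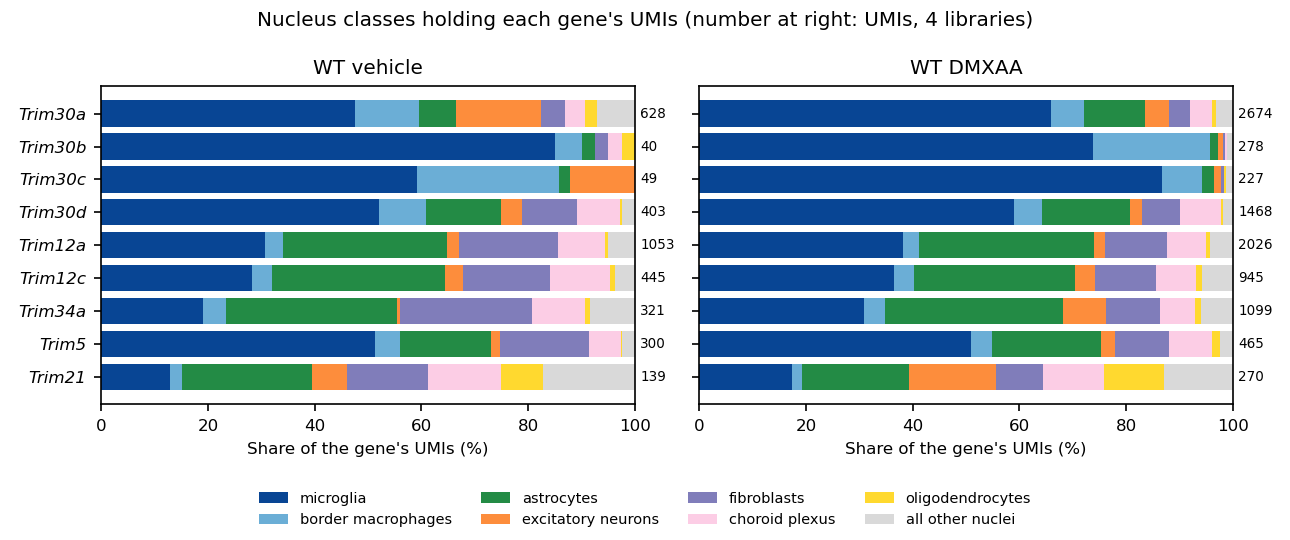
Share of each gene's UMIs (percent, horizontal axis) held by each nucleus class, with the 4 WT vehicle libraries pooled at left and the 4 WT DMXAA libraries pooled at right; the number beside each bar is the gene's UMI total. Microglia hold 47.6% of Trim30a UMIs at left and 65.9% at right, and Trim12a, Trim12c and Trim34a keep a large astrocyte part in both.

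In microglia of WT mice, *Trim30a* stood at 117, 141, 119 and 89.8 CPM in the vehicle libraries and at 889, 529, 398 and 577 CPM in the DMXAA libraries. Every DMXAA library lay above every vehicle library, and the lowest was replicate 3. The ratio of group means was 5.13, or 5.70 without replicate 3 and 4.30 without replicate 1. The fitted log2 fold change was 2.38 ± 0.21 (SE), resting on 299 UMIs with vehicle and 1761 with DMXAA.

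Among the closest relatives, *Trim30b* was read at 13.8, 19.2, 8.25 and 11.4 CPM with vehicle and at 110, 77.1, 32.7 and 62.9 CPM with DMXAA. *Trim30c* went from 18.4, 14.4, 3.30 and 8.55 CPM to 103, 64.8, 23.4 and 80.0 CPM. *Trim30d* went from 95.3, 72.1, 80.8 and 77.0 CPM to 474, 302, 145 and 271 CPM. No overlap was seen for any of the 3 genes, and replicate 3 was again the lowest DMXAA library. Their fitted log2 fold changes were 2.41 ± 0.42, 2.57 ± 0.43 and 1.88 ± 0.25. The ratios of group means were 5.37, 6.07 and 3.67, or 4.37, 5.01 and 2.95 without replicate 1 and 6.33, 7.4 and 4.30 without replicate 3. Relative to *Trim30a*, *Trim30b* was at 11.4 and 11.6 UMIs per 100 *Trim30a* UMIs with vehicle and DMXAA, whereas *Trim30d* went from 70.2 to 49.2.

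*Trim34a*, a relative of the human TRIM34 gene, was read at 23.1, 28.8, 21.4 and 21.4 CPM with vehicle and at 194, 145, 45.5 and 89.2 CPM with DMXAA. The groups did not overlap, and the ratio of means was 5.0, or 6.03 without replicate 3 and 3.94 without replicate 1. *Trim12a* was read at 117, 144, 138 and 104 CPM with vehicle and at 343, 267, 144 and 305 CPM with DMXAA. Replicate 3 fell just below the highest vehicle library, so the groups touched. The ratio of means was 2.10, or 2.42 without that replicate and 1.90 without replicate 1. *Trim12c* was read at 46.1, 57.7, 42.9 and 48.5 CPM with vehicle and at 177, 156, 31.5 and 117 CPM with DMXAA. Here replicate 3 lay below every vehicle library while the other 3 lay above. The ratio of means was 2.47, or 3.07 without replicate 3 and 2.08 without replicate 1.

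*Trim5* had the smallest ratio of the 9 genes in microglia. It was read at 52.2, 73.7, 62.7 and 51.3 CPM with vehicle and at 85.1, 87.9, 42.0 and 109 CPM with DMXAA, with a ratio of means of 1.35. Replicate 3 lay below every vehicle library, and without it the ratio was 1.57. Without replicate 1 the ratio was 1.33. *Trim21* had 18 UMIs with vehicle and 47 with DMXAA, too few to pass the low-count filter of the fit. Its pooled ratio of 2.26 had an exact 95% interval of 1.29 to 4.13, which covers counting error only.

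**Figure D2:**
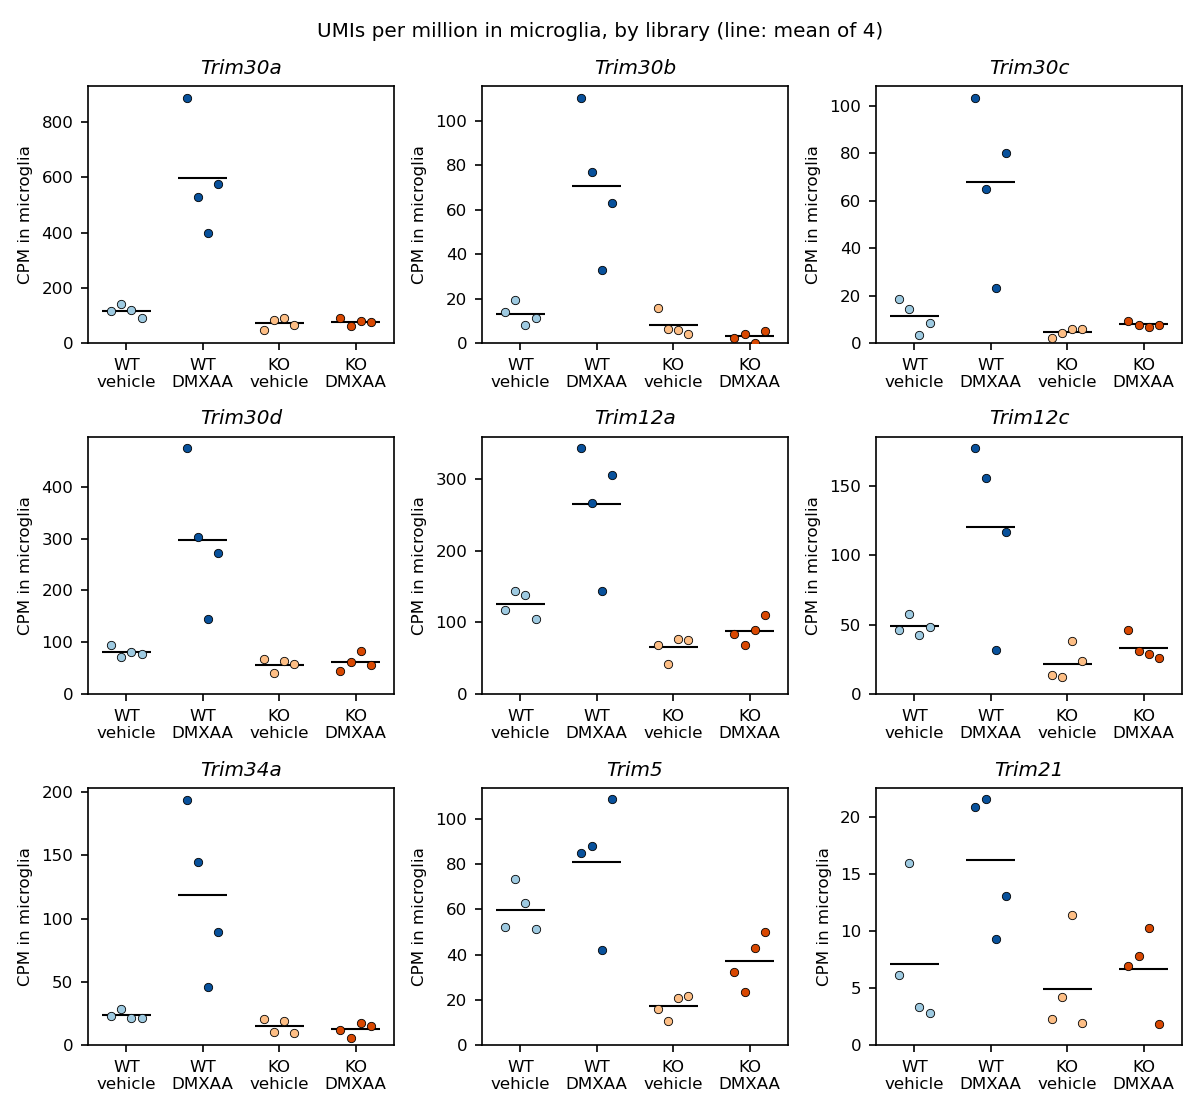
CPM in microglia (vertical axis, separate scale for each gene, from 0) for the 9 genes, 1 point per library and a line at the mean of 4. In each panel the WT DMXAA mean is the highest of the 4 groups, whereas the KO DMXAA and KO vehicle libraries overlap except for Trim5 and Trim30c.

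By the rule of an adjusted p below 0.05 and an absolute log2 fold change above 0.1, 6 of the 8 genes fitted in microglia passed as higher with DMXAA in WT, where 1.17% of all 9054 genes did. The 6 were *Trim30a*, *Trim30b*, *Trim30c*, *Trim30d*, *Trim12a* and *Trim34a*. Of these, *Trim30b* and *Trim30c* were fitted only because the WT DMXAA libraries carried them over the low-count filter. For 5 of the 9 genes, all 4 DMXAA libraries lay above all 4 vehicle libraries, against 2.28% of all genes. The genes were chosen with this contrast known, so neither count is a test. Over the 14 classes, 30 of 126 pairs of a gene and a class could be fitted, in 8 classes. Of these 30, 8 passed as higher and 29 had a positive fold change, where 0.174% of all pairs passed as higher.

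Markers of other myeloid cells were low in these microglia but were higher with DMXAA. The 6 border macrophage markers summed to 6.41 to 13.2 CPM with vehicle and 13.9 to 20.9 CPM with DMXAA, when 3 and 2 of the 6 had a UMI. The 6 peripheral myeloid markers summed to 4.95 to 12.8 CPM with vehicle, when 3 of the 6 had a UMI. With DMXAA they summed to 10.8 to 30.7 CPM, when 5 of the 6 had a UMI. Their part in the result was not tested.

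The same contrast was read nucleus by nucleus. When each microglial nucleus was thinned to 1000 UMIs, the share with at least 1 *Trim30a* UMI was 10.3 ± 1.46% in WT vehicle (8.11 to 11.1%) and 42.0 ± 10.7% in WT DMXAA (31.0 to 56.4%). Without thinning, the shares were 18.7% and 62.1%. Nuclei with 4 or more *Trim30a* UMIs numbered 44, 15, 9 and 25 in the DMXAA libraries and 0, 1, 0 and 0 in the vehicle libraries. The most *Trim30a* UMIs in 1 microglial nucleus was 7. In oligodendrocytes, where *Trim30a* is not a known marker, the thinned shares were 0.138% and 0.191%, at median depths of 2117.5 to 2236.5 UMIs in WT vehicle nuclei, against 1794 to 1921 UMIs in microglia. Thinning left out 17 of the 1327 WT vehicle microglial nuclei and 28 of the 1474 WT DMXAA microglial nuclei.

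**Figure D3:**
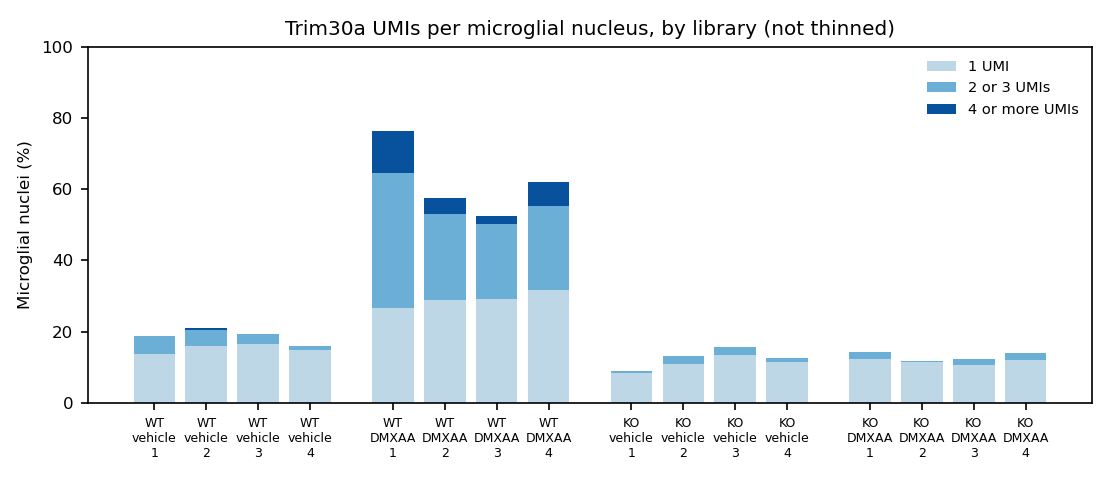
Percentage of microglial nuclei (vertical axis) with 1, with 2 or 3, and with 4 or more Trim30a UMIs, 1 bar per library, without thinning. The 4 WT DMXAA bars reach 52.5 to 76.4%, the WT vehicle bars 15.9 to 20.9% and all KO bars at most 15.7%.

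In KO microglia none of the 8 genes fitted passed the test. Of these, *Trim30b* and *Trim30c* had passed the low-count filter through the WT DMXAA libraries, with 205 and 197 UMIs. In KO, *Trim30b* had 15 UMIs with vehicle and 6 with DMXAA, and *Trim30c* had 9 and 16. These counts are too low for the test to decide on them. *Trim30a* was read at 47.4, 81.8, 91.3 and 64.9 CPM with vehicle and at 90.01, 62.4, 80.6 and 74.4 CPM with DMXAA. The groups overlapped throughout, and the log2 fold change was 0.05 ± 0.24 (edgeR adjusted p = 0.98). *Trim30d* gave 0.07 ± 0.29 (edgeR adjusted p = 0.98), and *Trim34a* gave -0.30 ± 0.49 (edgeR adjusted p = 0.93). The thinned share of nuclei with a *Trim30a* UMI was 7.18 ± 1.70% with vehicle and 7.80 ± 1.43% with DMXAA, a difference of 0.622 percentage points (two-sided exact permutation test, p = 0.571, or 0.653 adjusted over the 8 comparisons of 4 classes, n = 4 per group). Thinning left out 67 of 981 and 40 of 1083 KO nuclei.

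Over all classes, none of the 30 pairs passed in KO by edgeR, nor by DESeq2, and 2 had an unadjusted p below 0.05. Over all genes, 464 of 9054 did in microglia and 1018 of 17762 in excitatory neurons, the classes of the 2 pairs. The lowest adjusted p among the 30 was 0.78 (edgeR), and 25 of the 30 fold changes were positive. The median log2 fold change over all genes was 0.0025 in microglia and -0.0018 in excitatory neurons. Of all 111585 pairs of a gene and a class, 0.0% passed in either direction. One of the 2 pairs was *Trim5* in microglia, at 15.8, 10.5, 20.9 and 21.6 CPM with vehicle and 32.3, 23.4, 42.9 and 50.2 CPM with DMXAA. All 4 DMXAA libraries lay above all 4 vehicle libraries, with a log2 fold change of 1.05 ± 0.33 (edgeR adjusted p = 0.87). *Trim30c*, on 9 and 16 UMIs, also showed no overlap in microglia, and 5.22% of all genes separated in one direction or the other. The other pair was *Trim30a* in excitatory neurons, with a log2 fold change of 0.78 ± 0.33 (edgeR adjusted p = 0.78). The thinned share of these neurons with a *Trim30a* UMI was 0.0378% with vehicle and 0.0726% with DMXAA (exact permutation test, p = 0.0286, the smallest possible, or 0.0762 adjusted over the 8 comparisons). Both shares lay below the 0.0809% and 0.0871% of KO oligodendrocytes. The difference did not pass after adjustment, and the part of free RNA in these shares was not tested.

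The difference between the DMXAA effects of WT and KO mice was 2.33 ± 0.32 on the log2 scale for *Trim30a* in microglia, the only 1 of the 30 pairs to pass the same rule for that difference, as 0.0251% of all pairs of a gene and a class did in either direction. For *Trim34a* it was 2.61 ± 0.61, and for *Trim30d* 1.81 ± 0.38. These differences include the WT contrast and are descriptions.

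**Figure D4:**
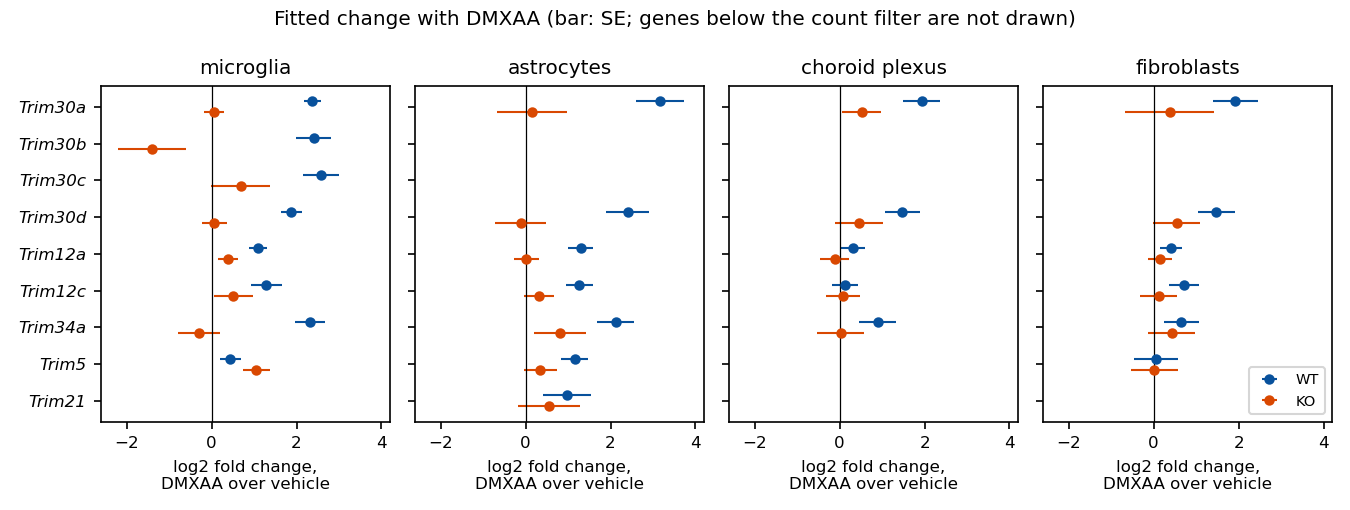
Fitted log2 fold change of DMXAA over vehicle (horizontal axis, bars give SE) for WT in blue and KO in orange, in the 4 classes with the most genes fitted. WT values of the Trim30 genes lie to the right in microglia and astrocytes, whereas KO values lie on both sides of 0, and a missing point marks a gene below the count filter.

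Astrocytes of WT mice also carried more *Trim30a* with DMXAA, with a wide spread. *Trim30a* was read at 6.66, 2.94, 3.04 and 4.11 CPM with vehicle and at 91.6, 24.5, 11.6 and 16.7 CPM with DMXAA. The groups did not overlap, but replicate 1 was far above the other 3, and the ratio of means of 8.62 fell to 4.21 without it. The log2 fold change was 3.17 ± 0.57, or 2.18 without replicate 1. *Trim30d* went from 8.09, 5.46, 5.70 and 3.52 CPM to 73.1, 17.9, 9.19 and 13.7 CPM, again without overlap. Its ratio of means was 5.0, or 2.39 without replicate 1.

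*Trim34a* in astrocytes was read at 9.04, 13.4, 8.74 and 8.52 CPM with vehicle and at 97.3, 22.2, 12.4 and 33.8 CPM with DMXAA. The groups overlapped at replicate 3, and the ratio of means was 4.17, or 2.29 without replicate 1. *Trim12a*, *Trim12c*, *Trim5* and *Trim21* also overlapped, with log2 fold changes of 1.30 ± 0.29, 1.27 ± 0.32, 1.15 ± 0.33 and 0.98 ± 0.56. Without replicate 1 those of *Trim12a*, *Trim12c* and *Trim21* were 0.83, 0.78 and 0.09. *Trim30b* and *Trim30c* were near absent from astrocytes, at 4 and 5 UMIs in the 4 DMXAA libraries. Of the 7 genes fitted, only *Trim30a* passed as higher, where 0.233% of all genes did, and groups did not overlap for 2 of 9 genes against 0.735% of all genes. Microglial markers in astrocytes summed to 108 to 144 CPM with vehicle and 80.7 to 130 CPM with DMXAA. Peripheral myeloid markers went from 3 UMIs (0 to 0.840 CPM) to 17 UMIs (0.515 to 4.39 CPM), and endothelial markers from 2.64 to 8.82 CPM to 7.19 to 18.0 CPM. Border macrophage markers summed to 4.94 to 6.72 CPM and 5.02 to 13.2 CPM. Their part in the astrocyte values was not tested.

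The proportions among the genes differed between the classes. In WT DMXAA libraries, 100 *Trim30a* UMIs came with 19.3 *Trim34a* UMIs in microglia, 119 in astrocytes and 71.9 in excitatory neurons. For *Trim30b* the same figures were 11.6, 1.29 and 2.48. In KO astrocytes, *Trim34a* was read at 2.14, 1.59, 3.28 and 2.69 CPM with vehicle and at 4.60, 4.31, 3.88 and 4.65 CPM with DMXAA. These groups did not overlap, and the log2 fold change of 0.81 ± 0.61 did not pass (edgeR adjusted p = 0.87). The share of all genes that separated in KO astrocytes was not counted. In KO microglia 5.22% of all genes separated in one direction or the other.

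At the borders of the tissue the pattern was mixed. In choroid plexus, the secretory epithelium of the ventricles, *Trim30a* was read at 10.9, 12.6 and 16.3 CPM with vehicle and at 105, 31.1, 44.3 and 40.9 CPM with DMXAA. No library of either group overlapped the other. The fit used 12 libraries with at least 20 nuclei of this class, since WT vehicle replicate 4 had none and 3 others, WT DMXAA replicate 3 among them, had fewer. Its log2 fold change of 1.93 ± 0.44 was the only 1 to pass among 5 genes fitted, where 0.196% of all genes passed as higher. In the WT libraries fitted, astrocyte markers summed to 283 to 308 CPM with vehicle and 357 to 387 CPM with DMXAA, without overlap. Microglial, border macrophage, excitatory neuron and endothelial markers overlapped. The part of these markers in the result was not tested. In fibroblasts, *Trim30a* went from 9.39, 6.90, 26.5 and 15.7 CPM to 109, 40.0, 27.7 and 28.8 CPM, without overlap. Its log2 fold change of 1.93 ± 0.53 did not pass, and none of the 8984 genes fitted in this class did. The ratio of means was 3.52, or 2.20 without replicate 1. For choroid plexus and fibroblasts, the share of all genes that separated was not counted.

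The other genes with over 3 UMIs in a group overlapped between the WT groups in both classes, and none passed. In choroid plexus, *Trim30d* had 33 and 112 UMIs with vehicle and DMXAA and a log2 fold change of 1.48 ± 0.42. *Trim34a* gave 0.90 ± 0.43, *Trim12a* gave 0.32 ± 0.29 on 93 and 148 UMIs, and *Trim12c* gave 0.13 ± 0.31. *Trim5*, with 18 and 38 UMIs, and *Trim21*, with 19 and 31, were below the filter. Much of this rested on WT DMXAA replicate 1. Over the 3 DMXAA libraries fitted, the ratio of means was 4.46 for *Trim30a*, 2.98 for *Trim30d*, 2.22 for *Trim34a*, 1.26 for *Trim12a* and 1.12 for *Trim12c*. Without replicate 1 these ratios were 2.72, 1.65, 1.27, 0.864 and 0.888, so *Trim12a* and *Trim12c* turned in direction. With replicate 3, which had 10 nuclei, counted and replicate 1 left out, they were 2.92, 1.10, 0.843, 0.576 and 0.592. In fibroblasts, *Trim30d* gave 1.47 ± 0.43, *Trim12c* 0.72 ± 0.36, *Trim34a* 0.65 ± 0.41, *Trim12a* 0.42 ± 0.26 and *Trim5* 0.05 ± 0.52, and *Trim21* had 21 and 24 UMIs. Without replicate 1 the fibroblast ratio of means fell from 2.64 to 1.64 for *Trim30d*, from 1.56 to 1.05 for *Trim12c*, from 1.49 to 1.04 for *Trim34a*, from 1.27 to 1.03 for *Trim12a* and from 0.975 to 0.555 for *Trim5*.

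Border macrophages rested on few nuclei. Their *Trim30a* was read at 246, 151, 586 and 227 CPM with vehicle and at 807.4, 466, 183 and 375 CPM with DMXAA, and the groups overlapped. The log2 fold change was 0.66 ± 0.48. *Trim30b* in the same nuclei had 2 UMIs with vehicle and 61 with DMXAA, at 0, 15.1, 17.8 and 0 CPM and at 156, 166, 122 and 20.8 CPM. The groups did not overlap, and the pooled ratio was 15.7 (exact 95% interval 4.18 to 133, counting error only). How many of all genes separated in this class was not counted. Of the 61 UMIs, 38 were in replicate 3. The ratio of group means was 14.2, or 13.9 without replicate 3 and 12.6 without replicate 1. Peripheral myeloid markers in these nuclei summed to 100.6, 317, 248.6 and 295 CPM with vehicle and to 625, 2846, 3248 and 0 CPM with DMXAA. Border macrophage markers summed to 7670 to 11139 CPM with vehicle and 2023 to 9804 CPM with DMXAA. Their part in the *Trim30a* and *Trim30b* values was not tested. The other genes of this class overlapped between the groups, with 35 and 75 UMIs of *Trim30d*, 36 and 61 of *Trim12a*, 16 and 37 of *Trim12c*, 14 and 42 of *Trim34a*, 14 and 18 of *Trim5*, 13 and 17 of *Trim30c* and 3 and 5 of *Trim21*. Endothelial cells held 21 and 24 UMIs of *Trim12a*, 13 and 13 of *Trim34a*, 4 and 7 of *Trim12c* and 2 and 1 of *Trim5*. Endothelial *Trim30a* had 19 and 21 UMIs and a log2 fold change of -0.06 ± 0.69. That fit used the 13 libraries with at least 20 endothelial nuclei, with 2 in the smallest group. WT DMXAA had 61 such nuclei in all, 4 to 20 per library.

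In excitatory neurons, the gene that separated the groups was *Trim34a*. *Trim30a* was read at 0.771, 1.001, 0.776 and 1.04 CPM with vehicle and at 1.61, 1.36, 0.683 and 0.979 CPM with DMXAA, and the groups overlapped. Its log2 fold change was 0.42 ± 0.28. *Trim34a* had 2 UMIs in the 4 vehicle libraries and 87 in the 4 DMXAA libraries, at 0, 0.0358, 0 and 0.0346 CPM and at 1.88, 0.661, 0.355 and 0.440 CPM. Every DMXAA library lay above every vehicle library. The share of all genes that separated in excitatory neurons was not counted. The pooled ratio was 44.7, with an exact 95% interval of 12.003 to 375 that covers counting error only. Replicate 1 held 48 of the 87 UMIs, and the ratio of group means was 47.5, or 27.6 without replicate 1 and 56.6 without replicate 3. The gene fell below the low-count filter of the fit. Without the filter its fitted log2 fold change was 5.17, a description only since the gene was chosen with this contrast known.

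The *Trim34a* UMIs were found in each group of excitatory neurons, with 1 and 13 UMIs in dentate granule neurons with vehicle and DMXAA, 0 and 27 in CA1 neurons, 0 and 13 in CA3 neurons and 1 and 34 in the remaining excitatory neurons. In CA1 and in CA3 all 4 DMXAA libraries held at least 1. In KO excitatory neurons *Trim34a* had 3 UMIs with vehicle and 3 with DMXAA. The neuronal mean of 0.835 ± 0.711 CPM in WT DMXAA stood beside 1.07 ± 0.802 CPM on 13 UMIs in oligodendrocytes and 1.26 ± 1.46 CPM on 4 UMIs in their precursors. In WT vehicle these classes stood at 0.0176, 0.25 and 0 CPM, on 2, 3 and 0 UMIs. The part of free RNA in these low levels was not tested. *Trim21* went from 9 to 44 UMIs in WT excitatory neurons, at 0.175, 0.0715, 0.0388 and 0.0346 CPM and at 1.02, 0.389, 0.164 and 0.0979 CPM. These groups overlapped, and the pooled ratio was 5.02 (exact 95% interval 2.42 to 11.7). Replicate 1 held 26 of the 44 UMIs, and the ratio of group means of 5.22 fell to 2.71 without it. The other genes overlapped, with 16 and 33 UMIs of *Trim30d*, 24 and 41 of *Trim12a*, 15 and 35 of *Trim12c*, 5 and 12 of *Trim5* and 6 and 3 of *Trim30c* with vehicle and DMXAA. Only *Trim30a* of the 9 genes could be fitted in this class and it did not pass, where 0.113% of all genes passed as higher.

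Microglial markers in the excitatory neurons summed to 71.6 to 94.1 CPM with vehicle and 31.0 to 126 CPM with DMXAA, with all 9 markers read in both groups. Peripheral myeloid markers summed to 0.349 to 0.456 CPM with vehicle and 0.538 to 2.27 CPM with DMXAA. Their part in the *Trim34a* and *Trim21* values was not tested. In microglia of the same DMXAA libraries, 340 *Trim34a* UMIs stood beside 1761 of *Trim30a*, whereas in excitatory neurons 87 stood beside 121.

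**Figure D5:**
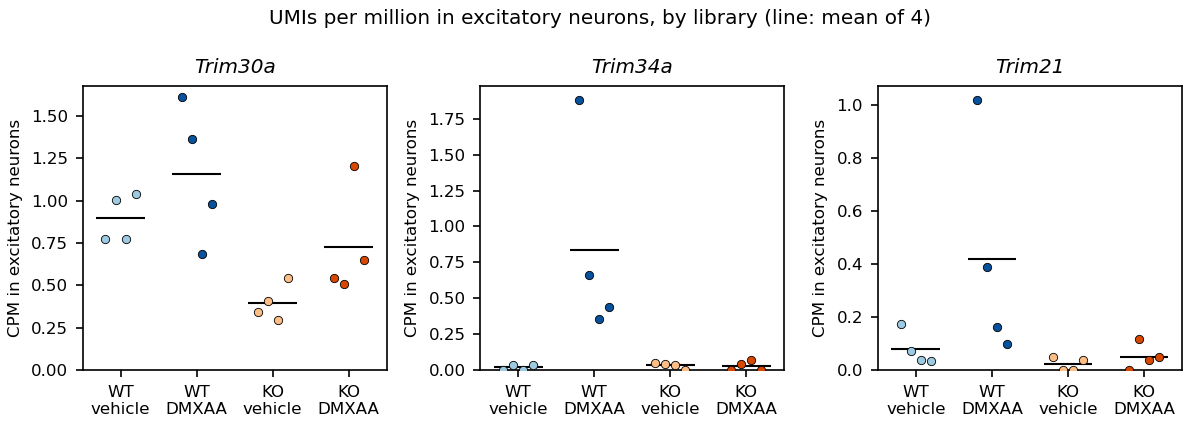
CPM in excitatory neurons (vertical axis, separate scale for each gene, from 0) for Trim30a, Trim34a and Trim21, 1 point per library and a line at the mean of 4. Trim34a is at most 0.0358 CPM in WT vehicle and at least 0.355 CPM in WT DMXAA, whereas Trim30a overlaps between these groups.

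In the remaining classes the counts were small. Oligodendrocytes of WT mice had 11 *Trim21* UMIs with vehicle and 30 with DMXAA, 5 and 17 of *Trim12a*, 4 and 12 of *Trim12c*, 3 and 13 of *Trim34a*, 1 and 7 of *Trim5*, 1 and 6 of *Trim30d* and 14 and 22 of *Trim30a*. All of these overlapped between groups. Oligodendrocyte precursors had 1 and 9 UMIs of *Trim12a*, 0 and 6 of *Trim12c*, 0 and 4 of *Trim34a*, 3 and 6 of *Trim30a* and 13 and 20 of *Trim21*. For *Trim12a* and *Trim30a* all 4 DMXAA libraries lay above all 4 vehicle libraries, but the closest pair of libraries held 1 UMI each and differed only in class depth. The share of all genes that separated in these precursors was not counted. Inhibitory neurons held 14 and 16 UMIs of *Trim30a*, with a pooled ratio of 0.985 (exact 95% interval 0.450 to 2.18). They held 3 and 5 UMIs of *Trim12a*, 5 and 4 of *Trim30d* and 2 and 4 of *Trim34a*. Ependymal cells, which line the ventricles, held 1 and 9 UMIs of *Trim30a*, 0 and 10 of *Trim30d*, 4 and 12 of *Trim34a*, 3 and 13 of *Trim12c* and 5 and 8 of *Trim12a*. Pericytes and smooth muscle held 18 and 23 of *Trim12a*, 2 and 12 of *Trim12c*, 10 of the 12 in replicate 3, and 4 and 4 of *Trim34a*. In ependymal cells and in pericytes and smooth muscle, *Trim5* had over 3 UMIs in 1 KO group each, with 5 in ependymal cells with vehicle and 5 in pericytes and smooth muscle with DMXAA. Cajal-Retzius cells held 3 and 5 of *Trim21*.

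Summed over all nuclei, *Trim30a* stood at 3.85 ± 0.437 CPM in WT vehicle and 16.9 ± 7.31 CPM in WT DMXAA. In KO it stood at 2.09 ± 0.365 CPM with vehicle and 2.34 ± 0.389 CPM with DMXAA. In such sums, fewer cells of a type and less RNA per cell cannot be told apart. Microglia were 4.30 ± 0.229% of nuclei in WT vehicle and 4.81 ± 0.629% in WT DMXAA, while their part of the *Trim30a* UMIs went from 47.6 ± 5.6% to 66.7 ± 5.3%. For *Trim30c* the microglial part went from 55.5 ± 22.7% to 84.3 ± 11.0%, and for *Trim5* it was 52.9% and 50.5%.

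Without treatment, 7 of the 30 pairs passed as lower in KO than in WT nuclei (edgeR), where 14.0% of all pairs of a gene and a class did. In all, 15 had an unadjusted p below 0.05. Over all genes, 3205 of 9054 did in microglia, 5689 of 13326 in astrocytes and 9997 of 17762 in excitatory neurons. A negative log2 fold change was found for 29 of the 30. In microglia the median over the 8 genes fitted was -0.71, against -0.03 over all genes. Among the 8, *Trim30b* and *Trim30c* rested on 34 and 29 UMIs in WT vehicle and on 15 and 9 in KO vehicle. The largest in microglia was *Trim5*, at 52.2, 73.7, 62.7 and 51.3 CPM in WT vehicle and at 15.8, 10.5, 20.9 and 21.6 CPM in KO vehicle. The groups did not overlap, and the log2 fold change was -1.64 ± 0.31 (edgeR adjusted p = 0.0047). *Trim12a* was read at 67.7, 42.0, 76.1 and 74.7 CPM in KO vehicle microglia, all below the WT vehicle libraries, with a log2 fold change of -0.80 ± 0.23 (edgeR adjusted p = 0.029). This call was lost without WT vehicle replicate 2 or 3 or KO vehicle replicate 1 or 2, with edgeR adjusted p of 0.060 to 0.096. These were the 2 of 8 microglial genes that passed, where 7.62% of all genes were lower. Astrocyte markers in these microglia summed to 383 to 480 CPM in WT vehicle and 508 to 541 CPM in KO vehicle, and endothelial markers to 20.8 to 33.8 CPM and 38.4 to 53.1 CPM. Neither list overlapped between the groups, and their part in the result was not tested.

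The other microglial genes gave values below 0 that did not pass. *Trim30a* gave -0.56 ± 0.23 (edgeR adjusted p = 0.096), with 1 KO library above 1 WT library. *Trim12c* gave -0.99 ± 0.44 (edgeR adjusted p = 0.12), and passed only when WT DMXAA replicate 3 was left out, at -0.97 (edgeR adjusted p = 0.010). For 5 of the 9 genes (*Trim30d*, *Trim12a*, *Trim12c*, *Trim34a* and *Trim5*), all KO vehicle libraries lay below all WT vehicle libraries, against 19.9% of all genes. The thinned share of microglia with a *Trim30a* UMI was 3.12 percentage points lower in KO vehicle (two-sided exact permutation test, p = 0.0857, or 0.171 adjusted over the 8 comparisons, where 0.0286 is the smallest possible). Astrocytes gave 0.422% in WT vehicle and 0.134% in KO vehicle (exact permutation test, p = 0.0286, or 0.0762 adjusted). The share in WT vehicle oligodendrocytes was 0.138%. Excitatory neurons gave 0.0963% and 0.0378% with the same p and adjusted p, below that oligodendrocyte share. The part of free RNA in these shares was not tested.

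In astrocytes, 1 of 7 genes passed as lower in KO vehicle, where 16.6% of all genes did. *Trim34a* was read at 9.04, 13.4, 8.74 and 8.52 CPM in WT vehicle and at 2.14, 1.59, 3.28 and 2.69 CPM in KO vehicle, a log2 fold change of -1.86 ± 0.57 (edgeR adjusted p = 0.020). All KO libraries lay below all WT libraries. The call was lost without WT vehicle replicate 2, KO vehicle replicate 1 or KO vehicle replicate 2 (edgeR adjusted p of 0.050 to 0.058). Astrocyte markers were higher in KO vehicle, at 14883 to 16113 CPM, than in WT vehicle, at 12000 to 13790 CPM. Microglial markers in astrocytes were lower, at 63.8 to 79.4 CPM against 108 to 144 CPM. Their part in the result was not tested.

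In fibroblasts, 3 of 6 genes passed as lower in KO vehicle, where 8.66% of all genes did. *Trim30a* was read at 5.59, 2.27, 2.68 and 0 CPM in KO vehicle, all below WT vehicle, with a log2 fold change of -2.40 ± 0.88 (edgeR adjusted p = 0.041) that rested on 7 UMIs. *Trim34a* gave -1.70 ± 0.50 (edgeR adjusted p = 0.023) and *Trim12a* gave -0.84 ± 0.27 (edgeR adjusted p = 0.043). Each of the 3 calls was lost when any of several libraries was left out: 6 of 16 libraries for *Trim30a*, 10 of 16 for *Trim12a* and 3 of 16 for *Trim34a*, with the highest adjusted p at 0.13, 0.15 and 0.078 (edgeR). In the same fibroblasts, border macrophage markers were lower in KO vehicle (1.14 to 2.75 CPM against 3.45 to 7.51 CPM), as were excitatory neuron markers (95.1 to 158 CPM against 162 to 218 CPM). Astrocyte markers were higher (1493 to 1936 CPM against 1177 to 1462 CPM), and the part of these 3 lists in the result was not tested. In choroid plexus, *Trim12c* passed as lower, at -1.04 ± 0.35 (edgeR adjusted p = 0.024), where 14.8% of all genes did. In the 3 libraries of each group fitted, microglial markers summed to 210.3 to 317 CPM in WT vehicle and 112 to 179 CPM in KO vehicle, border macrophage markers to 8.16 to 32.6 CPM and 3.07 to 4.85 CPM, and endothelial markers to 726 to 919 CPM and 1179 to 1226 CPM. None of these 3 lists overlapped between the groups, and their part in the result was not tested. It did not pass with DESeq2 (adjusted p = 0.077), nor without WT vehicle replicate 3, KO vehicle replicate 3 or KO vehicle replicate 4 (edgeR adjusted p of 0.067 to 0.13).

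In excitatory neurons, *Trim30a* in KO vehicle stood at 0.341, 0.405, 0.294 and 0.543 CPM against 0.771, 1.001, 0.776 and 1.04 CPM in WT vehicle, without overlap. The log2 fold change of -0.72 ± 0.32 did not pass (edgeR adjusted p = 0.068) in a class where 25.8% of all genes passed as lower and 49.1% in either direction. Microglial markers in the same neurons were lower too, at 25.5 to 35.4 CPM in KO vehicle against 71.6 to 94.1 CPM in WT vehicle. So were excitatory neuron markers, at 1543 to 1646 CPM against 1697 to 1931 CPM. Peripheral myeloid markers were also lower, at 0.0388 to 0.244 CPM against 0.349 to 0.456 CPM. The part of these lists in the result was not tested.

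Of 59 other genes named Trim, 22 could be fitted in microglia, and 2 passed as higher with DMXAA in WT, where 1.17% of all genes did, with a median log2 fold change of -0.03 over the 22 against 0.02 over all genes. *Trim25*, the ligase that ubiquitinates the RNA sensor RIG-I, rose from a mean of 21.1 to 60.2 CPM, with a log2 fold change of 1.53 ± 0.27 (edgeR adjusted p = 0.0044). *Trim14*, an adaptor of antiviral signalling, rose from 83.8 to 180 CPM, at 1.13 ± 0.19 (edgeR adjusted p = 0.0038). *Trim25* also rose in astrocytes, at 1.72 ± 0.27 (edgeR adjusted p = 0.0047). It was the only 1 of 31 genes to pass there, where 0.233% of all genes passed as higher. In KO none of the 22 passed in microglia by edgeR or by DESeq2, 0 had an unadjusted p below 0.05, and their median was -0.14 against 0.00 over all genes.

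Between KO vehicle and WT vehicle, 6 of 35 other Trim genes fitted in excitatory neurons passed as higher and 9 as lower, where 49.1% of all genes passed in either direction. In choroid plexus 1 of 18 passed as higher and 3 as lower, where 28.6% of all genes did, and in Cajal-Retzius cells 1 of 6, where 3.34% did. In neurons and choroid plexus the share was not above the background. The values of the 5 with the largest changes follow as a description. In excitatory neurons, *Trim43c* was lower, at -1.76 ± 0.41 (edgeR adjusted p = 0.0029), whereas *Trim67* and *Trim2* were higher, at 1.29 ± 0.27 and 1.004 ± 0.20 (edgeR adjusted p = 0.0022 and 0.0018). *Trim35* was lower in Cajal-Retzius cells, at -1.42 ± 0.41 (edgeR adjusted p = 0.049), and *Trim68* was lower in choroid plexus, at -1.25 ± 0.40 (edgeR adjusted p = 0.016). In microglia 1 of the 22, *Trim36*, passed, at -0.65 ± 0.21 (edgeR adjusted p = 0.045), where 16.1% of all genes passed in either direction.

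The interferon pathway was read with the genes. Of 24 listed pathway genes, 22 had a row, 17 could be fitted in microglia and 7 passed as higher with DMXAA in WT, where 1.17% of all genes did. The count was 4 without WT DMXAA replicate 1, 10 without WT DMXAA replicate 3 and 5 to 8 without any other library. By edgeR, none of the 3 sensors and kinases or the 4 receptor genes fitted was among them. Of these 7, 2 (*Cgas* and *Tyk2*) had an unadjusted p below 0.05, where 872 of all 9054 genes did. Of the factors, *Stat2* rose from 33.8 to 200 CPM, with a log2 fold change of 2.57 ± 0.34, and *Irf9* from 38.3 to 92.6 CPM, at 1.27 ± 0.30. *Usp18*, which turns receptor signalling down, rose from 6.3 to 119 CPM. The highest edgeR adjusted p among the 7 was 0.0395. Of 5 other restriction factors fitted, 4 rose, namely *Bst2* (tetherin, 2.61 ± 0.59), *Zc3hav1* (1.29 ± 0.18), *Samhd1* (0.91 ± 0.21) and *Apobec3* (0.84 ± 0.15). In KO microglia none of the 17 passed by edgeR or DESeq2. Of them 1, *Tyk2*, had an unadjusted p below 0.05, where 464 of all 9054 genes did. *Irf3* and *Irf9* were lower in KO vehicle than in WT vehicle microglia, at -1.41 ± 0.39 and -1.48 ± 0.40 (edgeR adjusted p = 0.025 and 0.019).

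By the mean log2(CPM + 1) of 6 classes in 4 groups, 24 points that share libraries and depth, the genes outside the 9 most like *Trim30a* among 20017 were *Gbp5* (Pearson r = 0.986), *Psmb9* (0.986), *Ifi35* (0.971), *Parp14* (0.970) and *Parp10* (0.969). *Gbp5* is a guanylate-binding protein and *Psmb9* a subunit of the immunoproteasome. Among the 9 genes, *Trim30d* was the most like it (0.975) and *Trim21* the least (0.841). In WT microglia, mean *Gbp5* went from 12.1 to 21.1 CPM with DMXAA, and mean *Psmb9* from 19.1 to 42.5 CPM. Mean *Ifi35* went from 39.4 to 112 CPM and mean *Parp10* from 20.6 to 47.8 CPM. *Parp14* rose the most of these genes in microglia, from 82.3 ± 13.3 to 440 ± 266 CPM in WT. In KO it went from 30.3 ± 8.18 to 49.8 ± 10.9 CPM. The correlation spans classes as well as groups, so it is not a measure of the DMXAA rise alone.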

How the data were processed

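Per the labels, hippocampal nuclei were profiled with the 10x Chromium 3′ kit, and the authors counted reads against mm10. The deposited values are raw UMI counts per gene and barcode. The submitters' processing notes name Cell Ranger 3.1.0 and Seurat 3.0, whereas the headers of the deposited matrices name Cell Ranger 6.1.2.

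Barcodes with 200 to 4000 genes and at most 5% mitochondrial UMIs were kept, and simulated-doublet scores removed 0.8% per 1000 barcodes. Nuclei were clustered with Leiden (resolution 0.5, leidenalg 0.10.2) on 30 components of 2000 variable genes, and clusters were named from marker genes. Depth was 33443071 to 51966342 UMIs per library after filtering. UMIs were summed per library and class, and sums with fewer than 20 nuclei were left out of fits. Sums were fitted over all 4 groups with the quasi-likelihood test of edgeR 4.0.16 (TMM scaling, low-count filter). P-values were adjusted by Benjamini-Hochberg over all genes of a class, and a call needed an adjusted p below 0.05 and an absolute log2 fold change above 0.1. CPM is per 1000000 UMIs of the class and library and is not per length. Intervals of pooled ratios are exact at 95% and cover counting error only. Shares of nuclei were compared by exact permutation of 4 against 4 libraries. The code was tested on simulated data. Alternatives were DESeq2 1.42.0, RLE scaling, no filter, every barcode, other thinning depths and leaving out each library.

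The 9 genes, the lists and the tests were chosen with earlier results of these data known. In each named class, the 9 genes are named where a group had over 3 UMIs. Also named are the 5 genes most like *Trim30a* and, of the other Trim genes, up to 5 per contrast that passed with the largest change. Replicate numbers only name libraries. Each library is 1 animal. *Mx1* and *Mx2* were not analysed here, and 1 further gene of the pathway list is not reported here.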

Additional observations from a re-analysis of the deposited data

Results flagged for a closer look

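In 6 of 91 groups of 4 libraries, 1 library lay far from the other 3 by Dixon's criterion, where chance alone gives about 1 in 20. In astrocytes, WT DMXAA replicate 1 stood far above the others for *Trim30a* (91.6 CPM), *Trim30d* (73.1 CPM) and *Trim21* (15.4 CPM), and over all nuclei for *Trim30b* (2.49 CPM). WT vehicle replicate 2 stood above the others in astrocytes for *Trim34a* (13.4 CPM) and *Trim5* (8.40 CPM).

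Some genes passed the threshold of edgeR's fit for the difference between the DMXAA effects of WT and KO mice. For *Trim30a* and *Trim30b* this includes the WT contrast by which they were chosen, so their values are descriptions, and genotype cannot be told apart from age and cohort. For *Trim30a* the difference in log2 fold change was 2.33 in microglia and 2.08 over all nuclei, and for *Trim30b* it was 3.88 over all nuclei. For *Stat2* it was 3.19 in microglia, and for *Irf9* it was 3.99 in oligodendrocyte precursors and 1.55 over all nuclei.

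The nuclei left unnamed also carried *Trim30a*, at 6.51 ± 2.38 CPM (SD, n = 4) in WT DMXAA, against 1.73 CPM in WT vehicle, where single libraries ranged from 0.804 to 2.98 CPM. The KO groups stood at 2.53 CPM with vehicle and 1.87 CPM with DMXAA.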

How the results depend on the processing

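The counts of kept values cover a chosen set of single-gene values, mostly of the 9 genes in microglia and astrocytes, over the alternatives run. Outside microglia and astrocytes, only *Trim30a* was covered for DMXAA in WT. Single pathway genes were not covered, nor were other Trim genes except *Trim25* and *Trim14* in microglia. A tested value was kept when its direction and side of the threshold held. WT DMXAA values of the 9 genes were not tested, and were kept when they moved by less than the replicate spread. Their calls were not compared here. In all, 625 values were kept, 31 lost a call, 1 gained one, 6 moved by more than that spread and 2 reversed. The 6 were WT astrocytes without WT DMXAA replicate 1. All reversals, those of the main comparisons included, were in KO microglia, where values were near 0: *Trim30a* (0.05) was -0.10 without KO vehicle replicate 1, -0.0028 without KO vehicle replicate 4 and -0.047 without KO DMXAA replicate 1, within -0.10 to 0.18 over the libraries left out. *Trim30d* (0.07) was -0.055 without KO vehicle replicate 2 and -0.099 without KO DMXAA replicate 3, within -0.099 to 0.17. *Trim30a* in WT microglia stayed within 2.15 to 2.53. Pairs of the 9 genes called higher in WT numbered 8, or 17 without the filter and 11 with DESeq2. They numbered 17 without WT DMXAA replicate 3 and 7 without WT DMXAA replicate 1. All genes called higher in WT microglia numbered 106 of 9054, or 153 of 21445 without the filter and 126 of 9054 with DESeq2. Without replicate 3 they numbered 280 of 9242, and without replicate 1 they numbered 73 of 9176. In the same order, astrocytes gave 31, 49, 61, 122 and 29. Called lower in KO vehicle were 7 pairs, and 2 to 11 with a library left out. There were 2 without KO vehicle replicate 2 and 11 without WT DMXAA replicate 3. There were 3 without WT vehicle replicate 2, WT vehicle replicate 3 or KO vehicle replicate 3. In microglia, 1458 of all 9054 genes were called in either direction in this contrast. Without KO vehicle replicate 2 they numbered 600 of 9435, and without WT DMXAA replicate 3 they numbered 2997 of 9242. In astrocytes the same counts were 3938 of 13326, 2362 of 13525 and 5811 of 13573. *Trim30a* in excitatory neurons passed as lower in KO vehicle without KO vehicle replicate 4 (-0.90, edgeR adjusted p = 0.047) or KO DMXAA replicate 3 (-0.72, edgeR adjusted p = 0.042), within -0.90 to -0.57. Pathway genes called in WT microglia were 7, and 4 to 10 with a library left out, 4 being without WT DMXAA replicate 1. *Trim30a* summed over every barcode was 2.64, 10.8, 1.45 and 1.65 CPM in the vehicle and DMXAA groups of WT and then of KO. Shares of microglia with a *Trim30a* UMI were 18.7, 62.1, 12.6 and 13.1% without thinning and 5.46, 24.6, 3.65 and 3.87% at 500 UMIs. Without thinning, the KO vehicle share minus the WT vehicle share was -6.14 percentage points (exact permutation test, p = 0.0286, the smallest possible). Beyond these, the cause was not tested. No paired analysis was possible because replicate numbers were given in accession order and name libraries only.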

Other observations

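The neighbours of the 9 genes on chromosome 7 were read at low levels. Over all nuclei, *Trim6* had 25, 33, 19 and 18 UMIs in the vehicle and DMXAA groups of WT and then of KO, and *Trim34b* had 0, 3, 6 and 3. *Gm15133*, on the strand opposite *Trim12a*, had 19, 62, 19 and 15 UMIs, and *Gm47248*, opposite *Trim34a*, had 3, 15, 3 and 4.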
